A study of Homo sapiens with 6 samples.

Results

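Chromatin contacts of HCC1954, a breast cancer cell line, were compared with those of OE33, an oesophageal adenocarcinoma cell line. Both lines carry an amplified ERBB2, so the same oncogene is amplified in cells of different origin. Of the 6 Hi-C maps in the series, the 2 maps of these lines were taken, with every pair of 40-kb bins within and between chromosomes 1 to 22. A bin was used where it held at least 0.25 of the median number of read pairs in each line, which left 63055 of 72036 bins. The study examined how somatic rearrangements of cancer genomes change chromatin folding, and profiled 4 cancer cell lines by in situ Hi-C with the enzyme MboI. The labels give no genotype, passage or treatment for either line, and each line is 1 established culture.

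Hi-C joins DNA ends that lie close together in the nucleus and counts the joined pairs, so that each read pair is a contact between 2 places in the genome. Regions that are open and gene-rich (compartment A) preferentially meet each other, as do closed and gene-poor regions (compartment B), and boundaries separate stretches of chromatin, called topologically associating domains, that contact themselves more than their neighbours. ERBB2 encodes the receptor tyrosine kinase HER2, and its amplification on the long arm of chromosome 17 drives a subset of breast and of gastro-oesophageal adenocarcinomas. An amplified region yields more read pairs, and a piece of a chromosome joined to another yields contacts that its normal neighbours do not have.

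Each line had 1 map, so no test across samples was possible and no p-value is given. The map of HCC1954 held 110621058 read pairs, of which 19.0% joined different chromosomes, and the map of OE33 held 136017485, of which 35.9% did. A 40-kb bin held a median of 3058 read pairs in HCC1954 and 3875 in OE33. Replicates 1 and 2 of SW480, a colon cancer line of the same series, gave the only measure of replicate spread for compartments, insulation and distances. Their share of read pairs between chromosomes was 0.254% and 0.255%, so they gave none for contacts between chromosomes. Hi-C does not measure expression, and the labelled tissues could not be checked against marker genes.

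Coverage, here the read pairs that a bin held over those of the median bin of the same line, was raised at ERBB2 in both lines. The gene overlaps 2 bins of chromosome 17 (hg19, chr17:37844167-37886679). In HCC1954 these bins had 50.4 and 55.5 times the median coverage, with 325829 read pairs (95% exact Poisson interval 324711 to 326950, for counting error only). In OE33 they had 16.2 and 17.9 times the median, with 132832 read pairs (132119 to 133548). Coverage at ERBB2 was thus 3.10 times higher in HCC1954, and 5.56 times after the ratio was adjusted for the GC content of the bins. Of the read pairs of ERBB2, 23.7% reached other chromosomes in HCC1954 and 39.3% in OE33, against 19.0% and 35.7% over all usable bins. Over chromosome 17 as a whole the shares were 25.1% and 43.6%, above those of ERBB2 in both lines.

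**Figure D1:**
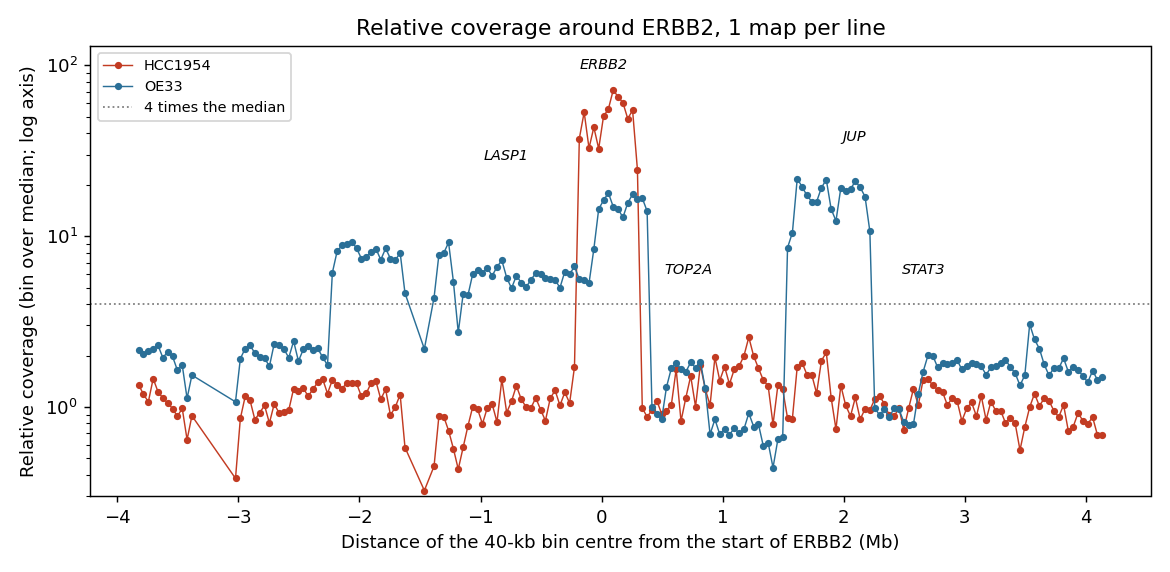
Relative coverage of 40-kb bins (log axis; bin over the median bin of the same line) against the distance of the bin centre from the start of ERBB2 in Mb, with 1 line of points per cell line and a dotted line at 4 times the median. HCC1954 forms 1 narrow plateau of 24.5 to 71.8 around ERBB2. OE33 forms a broad shoulder and a step to 17.9 at ERBB2, within a stretch whose bins, step included, have a median of 6.06. A second plateau of OE33 with a median of 17.9 lies around the keratin genes and JUP.

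The amplified stretches, runs of bins with at least 4 times the median coverage, differed in length and number. HCC1954 had 1 such stretch on chromosome 17, from 37.64 to 38.16 Mb. It was 520 kb long, its 13 bins ranged from 24.5 to 71.8 with a median of 50.4, and it held 16 whole protein-coding genes from NEUROD2 to PSMD3. OE33 had 5 stretches on the chromosome. The stretch with ERBB2 ran from 36.68 to 38.24 Mb, was 1560 kb long and held 39 whole genes, with a median of 6.06 and a highest bin of 17.9. A stretch of 720 kb from 39.36 to 40.08 Mb had a median of 17.9, as high as the ERBB2 bins themselves, while the same 18 bins had a median of 1.14 in HCC1954. The remaining stretches of OE33 lay at 27.52 to 28.20 Mb (median 5.20), 35.60 to 36.24 Mb (8.01) and 36.44 to 36.64 Mb (7.78), where the medians of HCC1954 were 1.43, 1.27 and 0.727. No bin of the 4 OE33 stretches without ERBB2 reached 4 times the median in HCC1954, the highest being 2.09. With pairs within chromosomes only, the OE33 stretch with ERBB2 was 720 kb long. Its shoulder was still there, but the bins at 37.08 Mb (3.82) and 37.48 Mb (3.66) lay just under 4 times the median and broke the run.

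Read along the chromosome, the 41 genes of a list of the ERBB2 amplicon fell into blocks. Among them 17 had at least 2-fold higher coverage in HCC1954 and 11 in OE33, beside 3.82% and 18.5% of all 18215 protein-coding genes with a value. Proximal of the HCC1954 stretch, LASP1, which encodes an actin-binding protein, had a relative coverage of 1.19 in HCC1954 and 6.47 in OE33, and FBXL20 and MED1 (a Mediator subunit) had 1.15 and 1.38 in HCC1954 against 5.59 and 6.32 in OE33. CDK12, a kinase of RNA polymerase II that spans the proximal edge, had 31.3 and 5.77. From NEUROD2 to TCAP the lines approached each other, as the coverage of OE33 stepped up towards ERBB2 while that of HCC1954 was already high. Beyond TCAP they parted again, up to IKZF3 and ZPBP2. NEUROD2 (38.1 and 6.85) and PPP1R1B (43.4 and 8.41) were 5.56-fold and 5.16-fold higher in HCC1954, and STARD3, a cholesterol transfer protein, was 3.33-fold higher (38.0 and 11.4).

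TCAP and PNMT lie in the same bin and had 32.5 in HCC1954 and 14.4 in OE33, and PGAP3 had 41.4 and 15.3. MIEN1 and GRB7, an adaptor protein that binds ERBB2, share a bin with 55.5 and 17.9. The highest gene values of HCC1954 followed at IKZF3, a lymphoid transcription factor, with 63.3 against 15.03, and at ZPBP2 with 60.5 against 12.9. GSDMB (48.8 and 15.6), ORMDL3 (51.7 and 16.6) and GSDMA (39.6 and 17.1) were 2.32-fold to 3.12-fold higher in HCC1954. PSMD3, a proteasome subunit in the last bin of the stretch, was 1.48-fold higher, with 24.5 and 16.5, and was under the 2-fold limit.

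Just beyond it the order turned. CSF3, the granulocyte colony-stimulating factor gene, had 0.987 in HCC1954 and 16.7 in OE33, and MED24 had 0.930 and 15.4, so that both genes were amplified in OE33 only. THRA, a thyroid hormone receptor gene, spans the distal edge of OE33 and had 0.917 and 7.51. Next to it, NR1D1 (0.959 and 1.004) was amplified in neither line. MSL1, CASC3, RAPGEFL1, WIPF2, CDC6, RARA, IGFBP4, TNS4, CCR7 and STAT3 were within 2-fold of each other, and TOP2A, a topoisomerase gene often considered together with ERBB2, had 1.32 and 1.72. SMARCE1 (1.69 and 0.769) and KRT20 (2.28 and 0.830) were higher in HCC1954 at low coverage. In the distal stretch of OE33, KRT19 had 1.98 in HCC1954 and 20.3 in OE33, KRT14 had 1.13 and 14.4, KRT17 had 0.741 and 12.3, and JUP, the gene of the junction protein plakoglobin, had 1.01 and 19.9. BRCA1 lay outside every stretch, with 0.758 and 1.61. All 41 genes of the list were in compartment A in both lines.

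Boundaries are local minima of insulation, the contact across a bin, and their strength is the drop and rise of insulation around the minimum on the log2 scale. In this neighbourhood some lay at the edges of the amplified stretches. A boundary at 38.16 Mb in HCC1954 (strength 1.51) and at 38.20 Mb in OE33 (strength 2.31) was shared, and coverage fell there by 5.72 on the log2 scale in HCC1954 and by 3.29 in OE33. HCC1954 alone had boundaries at 37.56 Mb (strength 1.67), where its coverage rose by 5.46 on the log2 scale, and at 36.92 Mb (0.210), where it rose by 0.40. At 36.92 Mb insulation was lower in OE33 (-1.08) than in HCC1954 (-0.66), although OE33 had no boundary within 80 kb. OE33 alone had boundaries at 35.76 Mb (1.28), 37.76 Mb (0.4005), 39.44 Mb (1.23) and 40.64 Mb (0.285), where its coverage rose by 1.80, 1.51, 4.64 and 0.69 on the log2 scale. Another boundary was shared at 39.92 Mb in HCC1954 and 40 Mb in OE33, where coverage fell by 4.35 on the log2 scale in OE33. A change in insulation at a coverage step and a change of folding cannot be told apart here.

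CTCF, a DNA-binding protein found at many boundaries, has a core motif that was searched on both strands of the reference sequence in the 3 bins centred on each boundary. The matches at the shared distal boundary and at the OE33 boundary inside the stretch amplified in HCC1954 are shown, because these are the boundaries nearest to ERBB2 that hold any. They are reference sequence of GRCh37 (the build of the bins), in lower case with the 13-base core in capitals. The match of the shared boundary lies in an intron of MED24 on the minus strand.
chr17:38183436-38183464: cacattgaCCACTAGGTGGCAgcattgcc
At the OE33 boundary, the matches on the plus strand lie between genes and in an intron of STARD3, in that order.
chr17:37778371-37778399: cgtttgtgCCACCAGAGGGCAgcctccgc
chr17:37795803-37795831: acagagctCCAGTAGATGGTGgctgggtg
Those on the minus strand lie between genes, in an intron of STARD3 and in a coding exon of PGAP3.
chr17:37779845-37779873: agaaagagCCGGCAGGTGGCGgagtcggc
chr17:37810281-37810309: gggagcctCCACTAGGGGGCAgtatgggg
chr17:37828590-37828618: ccaggacaCCACTAGGTGGTGctggatgc
Such a match was present in the 3 bins around 52.2% of all usable bins, and the boundary of HCC1954 at 37.56 Mb had 0 matches. A match is a description of the reference letters and not of binding in these cells.

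Contacts of ERBB2 along chromosome 17 had a different shape in each line. O/E is the corrected contact frequency over the mean of the same map at the same distance. In OE33 the 2 ERBB2 bins contacted the amplified stretch at 39.36 to 40.08 Mb at an O/E of 1.86 with 12109 read pairs (95% exact Poisson interval 11894 to 12327), although the nearer, unamplified interval from 38.24 to 39.36 Mb had an O/E of 0.0842 with 355 read pairs (319 to 394). In HCC1954 the distal stretch had an O/E of 0.0841 with 157 read pairs (133 to 184) and the interval 0.0668 with 609 (562 to 659). Contacts of OE33 thus passed over the interval and were high beyond it, while in HCC1954 both values were low. The paper reports that OE33 carries an inversion around ERBB2 and that a new domain formed there. The part of this inversion in these contacts was not tested. The 3 stretches of OE33 proximal of ERBB2 had O/E values between 0.426 and 1.44 with 643 to 1594 read pairs in OE33, and between 0.0555 and 0.318 with 35 to 89 in HCC1954. Between the stretch amplified in HCC1954 and the OE33 stretch at 39.36 Mb, 62266 read pairs (O/E 1.67) were found in OE33 and 850 (O/E 0.0771) in HCC1954. With the OE33 stretch at 27.52 Mb there were 3360 read pairs (O/E 1.42) in OE33 and 550 (O/E 0.3496) in HCC1954. High contact of ERBB2 in OE33 was not particular to this stretch. Outside it, the 200-kb blocks at 26.8, 27.0 and 27.2 Mb had O/E values of 1.93, 2.06 and 2.00, against 1.44 for the stretch. They held 155, 195 and 154 read pairs in OE33 and 30, 31 and 25 in HCC1954. The block at 26.6 Mb was lower, at 1.33. These blocks were picked by their ratio to HCC1954. The correction divides each contact by the factors of both bins, which lowers the O/E of an amplified bin with its neighbours, so both the read pairs and the O/E are given.

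In HCC1954 the amplified stretch contacted the start of the short arm of chromosome 12. The interval was chosen after its values were seen, as the stretch around the 1-Mb block with the highest O/E on another chromosome. From 0 to 10 Mb of chromosome 12 it received 27906 of 461875 read pairs of the stretch with other chromosomes, or 6.04% (95% Clopper-Pearson interval 5.97 to 6.11). In OE33 it received 1349 of 253501, or 0.532% (0.504 to 0.561). In HCC1954 the 600 kb on the proximal side of the stretch gave this interval 0.707% (98 read pairs) of its contacts with other chromosomes, and the 600 kb on the distal side 0.623% (76 read pairs). The mean O/E with this interval, here over the mean of all bin pairs between chromosomes, was 18.4 times that with other chromosomes in HCC1954 and 1.37 times in OE33. Without the correction these values were 16.7 and 1.41.

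Chromosome 13 was raised as well. The mean O/E of the stretch with whole chromosomes of HCC1954 was 11.1 for chromosome 13 (26618 read pairs), 10.6 for chromosome 12 (44325 read pairs) and 9.88 for chromosome 19. In OE33 the value for chromosome 13 was 1.79 (4901 read pairs). The highest 1-Mb blocks of chromosome 13 in HCC1954 were at 114 to 115 Mb (O/E 27.0, 332 read pairs) and at 20 to 21 Mb (26.9, 893 read pairs), under the 53.9 of the lowest block of the chromosome 12 interval. Chromosome 13 was also raised next to the stretch, where the proximal and the distal 600 kb of HCC1954 had a mean O/E of 2.57 and 3.15 with it, against 1.86 and 1.64 with chromosome 12. Chromosomes 19 (3.04 and 3.15) and 22 (2.66 and 2.70) had values in the same range there. The raise of chromosome 13 was not tied to these flanks. In HCC1954 the OE33 stretches at 27.52 and 39.36 Mb had 2.27 and 2.16 with it.

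**Figure D2:**
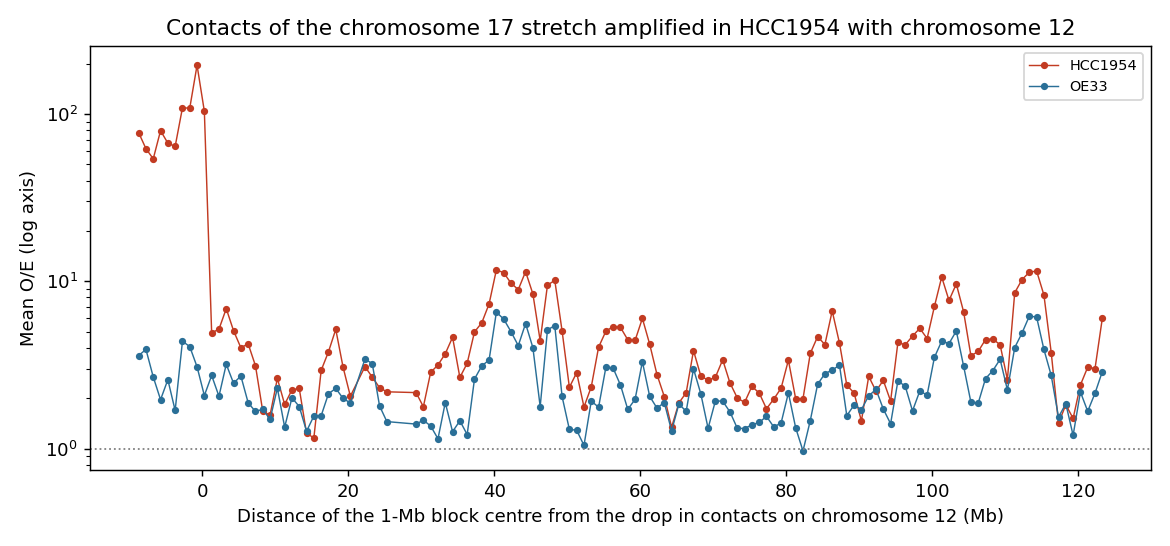
Mean O/E (log axis) between the chromosome 17 stretch amplified in HCC1954 and 1-Mb blocks of chromosome 12, against the distance of the block centre in Mb from the point where contacts dropped in HCC1954, with 1 line of points per cell line. The 10 blocks from 0 to 10 Mb, the last of which holds the drop, lie between 53.9 and 195 in HCC1954. In OE33 they lie between 1.69 and 4.38. The next block has 4.92 in HCC1954.

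The contacts with chromosome 12 rose towards an abrupt end. Per 1-Mb block of chromosome 12, the O/E of HCC1954 was lowest at 2 to 3 Mb (53.9, with 1370 read pairs) and highest at 8 to 9 Mb (195, with 4917 read pairs), where OE33 had 3.08 with 103 read pairs. Per 40-kb bin, the O/E of HCC1954 reached 479 at 9.08 Mb with 599 read pairs. It was 341 at 9.16 Mb with 425 read pairs and 0.809 at 9.20 Mb with 1 read pair. The relative coverage of HCC1954 fell at the same bins from 0.792 to 0.515, while OE33 had 1.04 and 0.968. Coverage counts every read pair of a bin, those with the stretch included, so this fall partly repeats the fall in contacts. The 4 bins from 9.04 to 9.20 Mb hold PHC1, which encodes a Polycomb protein, M6PR, the gene of a mannose 6-phosphate receptor, and KLRG1, a lymphocyte receptor gene.

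On the chromosome 17 side, contacts with these 4 bins were found from every bin of the amplified stretch of HCC1954 and from none of the neighbouring bins. The bin at 37.92 Mb, within IKZF3, had 538 of them and the bin at 37.88 Mb, with the end of ERBB2, MIEN1, GRB7 and the end of IKZF3, had 388. Per 1000 read pairs of the bin these are 2.44 and 2.27. The other 11 bins had between 34 and 170, or 0.340 to 0.981 per 1000. The 5 bins before 37.64 Mb and the 5 bins from 38.16 Mb on had 0 read pairs each. These flanking bins held 2690 to 5276 read pairs in all, against 75454 to 220935 for bins of the stretch. At the rates of the stretch, few contacts could be seen from them. In OE33 no bin of the same region had more than 5. The contact peak thus included the bin with the end of ERBB2 and was lower on both sides.

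The stretch that is amplified in HCC1954 had no comparable partner in OE33. Its highest O/E with a 1-Mb block of another chromosome was 8.85 at 2 to 3 Mb of chromosome 16 (389 read pairs), followed by 8.60 at 65 to 66 Mb of chromosome 11 (613 read pairs), both gene-dense blocks. The block at 100 to 101 Mb of chromosome 7, which lies in a region of high coverage in OE33, had 8.01 with 1048 read pairs.

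Over the genome, 147 of 2562 blocks of 1 Mb (5.74%) had at least 2-fold higher relative coverage in HCC1954 and 241 (9.41%) in OE33. With bins of at least 0.5 of the median coverage the counts were 106 and 148. The ratio moved with GC content. Over 63045 bins, Spearman's rho with the GC content was -0.40 for the ratio, -0.10 for the coverage of HCC1954 and 0.44 for that of OE33, over bins of 1 map per line. After the median of bins of the same GC class was subtracted, an adjustment chosen after seeing the data, 123 blocks were higher in HCC1954 and 178 in OE33, of which 111 and 146 were called without it as well. The share of GC content in the differences between genes was not tested, and the segments named here were past 2-fold both ways.

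**Figure D3:**
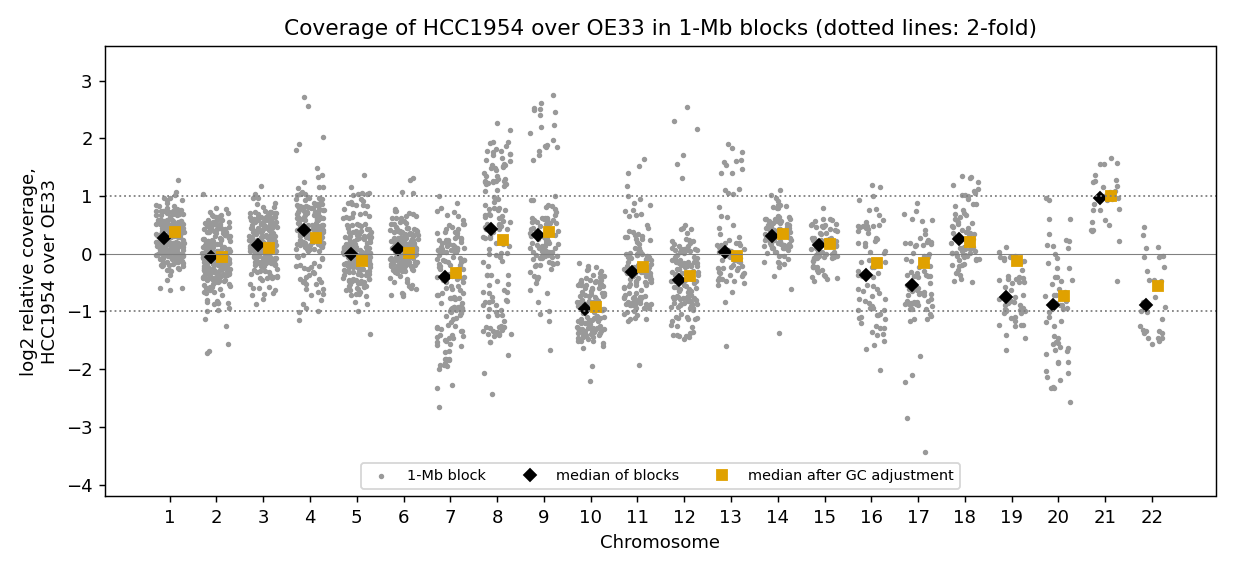
log2 ratio of relative coverage, HCC1954 over OE33, for each 1-Mb block (grey points) of chromosomes 1 to 22, with the median of each chromosome (black diamonds) and that median after the GC adjustment (yellow squares); dotted lines mark 2-fold. Chromosome 21 has a median of 0.97 and chromosome 10 of -0.96, and the low points of chromosome 17 are blocks of the OE33 stretches.

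HCC1954 was higher over long and short segments. On chromosome 9, 18 blocks from 1 to 19 Mb had a relative coverage of 3.30 in HCC1954 and 0.794 in OE33. On chromosome 12, 40 to 46 Mb had 3.54 and 0.874, and on chromosome 8, 89 to 106 Mb had 2.69 and 0.839 and 117 to 120 Mb had 6.21 and 1.46. Chromosome 4 from 173 to 179 Mb had 1.42 and 0.368. Chromosome 21 had a median log2 ratio of 0.97 over 32 blocks, the highest of all chromosomes, and 14 of its blocks were called.

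OE33 was higher along much of chromosomes 7, 10 and 20. On chromosome 7, 96 to 106 Mb had 2.93 in OE33 and 0.951 in HCC1954, and 107 to 120 Mb had 4.39 and 1.30. On chromosome 20, 15 to 24 Mb had 1.74 and 0.433, and 31 to 38 Mb had 2.39 and 0.784. Chromosome 10 had a median log2 ratio of -0.96, with 58 of its blocks called. Chromosome 15 had 0 of 74 blocks called in either direction.

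The counts of the other lists are to be read beside the 3.82% of all protein-coding genes at least 2-fold higher in HCC1954 and the 18.5% higher in OE33. Among 12 genes of growth signalling 1 was higher in HCC1954 and 3 in OE33. TERT, the catalytic subunit of telomerase, was higher in HCC1954 (4.11 against 1.52), although with pairs within chromosomes only the ratio of 2.69 became 1.57, under 2-fold. MET, FGFR1 and AKT1 were higher in OE33. MET, the receptor of hepatocyte growth factor, had 1.96 in HCC1954 and 6.504 in OE33, and lay in the chromosome 7 segment. The log2 ratios of FGFR1 (-1.08) and AKT1 (-1.72) became -0.60 and -0.57 with the GC adjustment, under 2-fold, and the ratio of FGFR1 was also under 2-fold (0.525) with pairs within chromosomes only. No gene of 12 in a cell cycle list passed 2-fold. The largest differences there were those of CCND1 (3.14 in HCC1954 and 1.61 in OE33), CDKN1B (0.802 and 1.45) and CDK6 (1.64 and 2.88), and that of CCND1 passed with the GC adjustment (log2 ratio 2.07). With pairs within chromosomes only the ratio of CCND1 was 1.19, against 1.95 with all pairs.

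Of 12 tumour suppressors, APC, a regulator of Wnt signalling, was higher in HCC1954 (2.96 against 1.26; ratio 2.35, and 1.94 with pairs within chromosomes only), and BRCA1 and STK11 were higher in OE33 (log2 ratios -1.09 and -2.09) without passing 2-fold after the GC adjustment (-0.82 and -0.64). Of 10 large genes of fragile sites, PTPRD (2.39 against 0.620) and WWOX (1.47 against 0.678) were higher in HCC1954, and IMMP2L (1.28 against 5.12) and CSMD1 (0.270 against 0.682) in OE33. All 4 kept more than a 2-fold difference with the GC adjustment.

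Among mammary and foregut genes the counts higher in OE33 were near the share over all genes. Of 19 mammary genes with a value, 1 was higher in HCC1954 and 4 in OE33. TFAP2B, a transcription factor gene, was higher in HCC1954 (1.94 against 0.870), while SOX10 (0.459 against 1.37) and the keratin genes KRT14, KRT17 and KRT19 were higher in OE33, the keratins within its distal amplified stretch. The log2 ratio of SOX10, -1.58, became -0.47 with the GC adjustment. Of 22 genes of foregut and intestinal metaplasia, 3 were higher in HCC1954 and 5 in OE33. HCC1954 was higher at KLF5 (1.85 against 0.615), CDH17, an intestinal cadherin (2.94 against 0.959), and HNF4G (1.89 against 0.903), whose log2 ratio of 1.07 became 0.80 with the GC adjustment, under 2-fold. Among those higher in OE33 were GATA4 (0.378 against 1.09), and HNF4A and VIL1, whose log2 ratios of -1.10 and -1.10 became -0.60 and -0.57 with the GC adjustment.

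Of 10 genes of squamous epithelium, TP63 (2.76 against 1.27) and DSG3 (1.62 against 0.656) were higher in HCC1954 and KRT13 (1.87 against 19.2) in OE33, the last in the distal amplified stretch. The log2 ratio of TP63, 1.12, became 0.90 with the GC adjustment, under 2-fold. Of 12 genes of mesenchymal and blood cells, PTPRC was higher in HCC1954 (2.29 against 1.06) and COL1A1 (0.637 against 1.502) in OE33, and with the GC adjustment their log2 ratios of 1.11 and -1.24 became 0.82 and -0.09. These are differences in coverage of DNA and say nothing of expression.

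Compartments were alike in outline and differed over short runs. A score per 200-kb block, positive in A and scaled to an SD of 1 per chromosome, had a Pearson r of 0.851 between the lines over 12672 blocks, which share their genome position and neighbours. Between the SW480 replicates r was 0.994. A block was called switched where the signs were opposite and the scores differed by at least 1, which gave 615 blocks (4.85%) in A in HCC1954 only and 180 (1.42%) in A in OE33 only, against 0 between the SW480 replicates. The SD of the difference was 0.551 between the lines and 0.111 between the replicates.

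**Figure D4:**
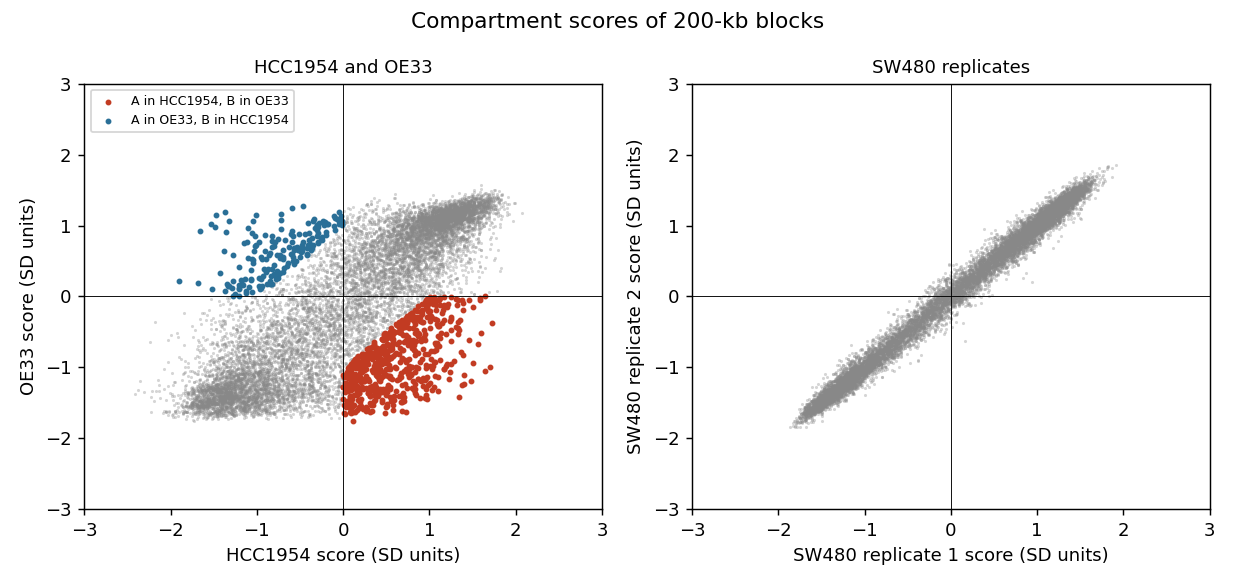
Compartment scores of 200-kb blocks in SD units, for HCC1954 (horizontal) and OE33 (vertical) on the left and for the SW480 replicates on the right. Coloured points are the 615 blocks in A in HCC1954 only (red) and the 180 in A in OE33 only (blue), and no block of the SW480 replicates met the same rule.

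The chromosomes differed in how alike they were. Chromosome 15 had an r of 0.953 and 2 switched blocks, and chromosome 10 had 0.937 and 11. Chromosome 20 had 0.752 and 37, and chromosome 21 had 0.274 and 52 of 161 blocks. Of the 180 blocks in A in OE33 only, chromosomes 20, 21 and 22 held 23, 22 and 23. For HCC1954 the component that followed gene density was not the leading one on chromosomes 4, 21 and 22. On chromosome 21 its r with gene density was 0.222, the lowest of all chromosomes of HCC1954, against 0.376 in OE33. The paper reports that this chromosome carries a complex rearrangement in the breast cancer line. The part of this rearrangement in the scores and in the switched blocks there was not tested. Without chromosome 21, an alternative chosen after seeing the data, r was 0.858 and 743 blocks were switched.

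A score from contacts with other chromosomes was computed from the same map. For each block it set contacts with blocks well inside A in both lines against contacts with blocks well inside B in both. Those blocks and its zero point came from the score within chromosomes, so the scores are not independent of each other. The score from other chromosomes had an r of 0.896 between the lines. Of the 615 blocks in A in HCC1954 only, 602 differed in the same direction by this score and 194 also met the rule for a switch. Of the 180 blocks in A in OE33 only, 145 and 53 did. Fewer blocks were switched by it, 2.99% in all against 6.27%.

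Switched blocks formed 344 runs, of which 82 had at least 3 blocks. The longest lay at 143.8 to 149.6 Mb of chromosome 2, with 29 blocks in A in HCC1954 only and mean scores of 0.70 in HCC1954 and -1.18 in OE33. It holds ZEB2, which encodes a repressor of epithelial genes, ACVR2A, an activin receptor gene, and 5 other genes. Its scores from other chromosomes were 0.17 and -0.78. Further runs in A in HCC1954 only held WNT5A, a Wnt ligand gene (chromosome 3, 54.4 to 56.6 Mb, 0.54 against -0.94) and NR3C2, the mineralocorticoid receptor gene (chromosome 4, 149.0 to 151.2 Mb, 0.62 against -1.13). Others held FAT4 (chromosome 4, 124.6 to 126.4 Mb, 1.08 against -0.69), GLI3, a transcription factor of Hedgehog signalling (chromosome 7, 41.8 to 43.6 Mb, 0.72 against -0.78), and NTRK2, a neurotrophin receptor gene (chromosome 9, 86.6 to 88.2 Mb, 0.84 against -0.88). These runs were picked by length after their values were seen, and in each of them the scores from other chromosomes had the same order.

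The longest runs in A in OE33 only were not borne out by contacts with other chromosomes. At 34 to 37.2 Mb of chromosome 21 the scores were -1.13 in HCC1954 and 0.97 in OE33, but 0.97 and 0.72 from other chromosomes. At 4.2 to 5.6 Mb of chromosome 20 they were -0.35 and 0.90, but 1.36 and 1.22 from other chromosomes, and at 35.8 to 37 Mb of chromosome 22 they were -0.93 and 0.92, but 1.58 and 1.94. By contrast, 172.6 to 173.8 Mb of chromosome 1, which holds FASLG and PRDX6, had -0.66 and 0.87, and -0.29 and 0.95 from other chromosomes.

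Of the genes in the lists, 5 lay in a switched block at their start, each in A in HCC1954 only, beside 2.26% of all 17888 protein-coding genes with a value for that direction and 1.36% for the other. ERBB4, a receptor of the ERBB2 family, had scores of 0.02 in HCC1954 and -1.11 in OE33. BRCA2, a gene of homologous recombination, had 1.10 and -0.41. TRPS1, a transcription factor gene expressed in breast epithelium, had 0.75 and -0.69. ZEB2 had 0.54 and -1.12, and TWIST1, another regulator of mesenchymal genes, had 0.09 and -1.23. For all 5 genes the score from other chromosomes was also higher in HCC1954, but it had opposite signs in the lines only at TRPS1 (0.39 and -0.59) and ZEB2 (0.05 and -0.71). By this score ERBB4 (-0.30 and -0.63) and TWIST1 (-0.31 and -1.08) were in B in both lines, and BRCA2 (0.84 and 0.02) was in A in both. None of 12 cell cycle, 22 foregut, 10 fragile site and 10 squamous genes with a score was switched.

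The separation of compartments was sharper in OE33 within chromosomes and not between them. The strength, the mean O/E of like blocks (A with A, B with B) over that of unlike blocks for the top and bottom 20% of scores, was 3.07 in HCC1954, 6.75 in OE33, and 4.11 and 4.10 in the SW480 replicates. The difference came with the B blocks, whose mean O/E with each other was 1.87 in HCC1954 and 2.54 in OE33, and with the unlike blocks (0.481 and 0.269), while A blocks had 1.09 in both lines. Between chromosomes the order was opposite, with a strength of 2.63 in HCC1954 and 2.06 in OE33.

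Insulation, the log2 contact across a bin in a 1-Mb square over the mean of its chromosome, had a Pearson r of 0.861 between the lines over 60158 bins and of 0.996 between the SW480 replicates. On read pairs without the correction r between the lines was 0.472. The difference between the lines had an SD of 0.271, which was 8.12 times that between the replicates, 0.0334. In 66.1% of bins the lines differed by more than 3 replicate SDs, against 0.383% of bins between the replicates. HCC1954 had 2545 boundaries, of which 1891 (74.3%) lay within 80 kb of a boundary of OE33, and OE33 had 2333, of which 1889 (81.0%) did so. The rest, 654 (25.7%) and 444 (19.0%), were not shared, against 82 of 2516 and 78 of 2511 between the SW480 replicates.

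Shared boundaries were stronger and more often near genes and CTCF motifs. The median strength in HCC1954 was 0.749 for shared and 0.437 for unshared boundaries, with interquartile ranges of 0.513 to 1.01 and 0.275 to 0.621, and in OE33 it was 0.754 and 0.430. A CTCF core match lay in the 3 bins around 68.4% of shared and 61.2% of unshared boundaries of HCC1954, and around 67.2% and 52.7% of those of OE33, beside 52.2% of all usable bins. A protein-coding gene lay in them for 87.9% and 78.0% in HCC1954 and for 87.7% and 78.2% in OE33, beside 69.2% of all usable bins. At the unshared boundaries of HCC1954 the median insulation was -0.31 in HCC1954 and -0.21 in OE33, and at those of OE33 it was -0.32 in OE33 and -0.21 in HCC1954.

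The strongest unshared boundaries of HCC1954 lay at 56.76 Mb of chromosome 20 (strength 1.92), at 37.56 Mb of chromosome 17 beside CDK12 (1.67), at 152.52 Mb of chromosome 7 near ACTR3B (1.56), at 68.84 Mb of chromosome 11 near TPCN2 (1.55) and at 33.96 Mb of chromosome 1 near CSMD2 (1.44). Coverage of HCC1954 rose by 5.46 on the log2 scale at the chromosome 17 boundary and by 2.50 at the chromosome 11 boundary, but by 0.34 at the chromosome 20 boundary. Those of OE33 lay at 52.12 Mb of chromosome 5 near ITGA1 (1.83), at 105.56 Mb of chromosome 12 near APPL2 (1.69), at 26.88 Mb of chromosome 22 near TFIP11 (1.63), at 107.84 Mb of chromosome 8 (1.57) and at 2.96 Mb of chromosome 6 near SERPINB6 (1.53). At these 5 the coverage step of OE33 was between -0.33 and 0.33 on the log2 scale. An unshared boundary is a local minimum of 1 line only and need not have less contact across it there. At the chromosome 22 and chromosome 6 boundaries of OE33, insulation was lower in HCC1954 (-0.46 and -1.08) than in OE33 (-0.13 and -0.91).

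Several of the largest differences in insulation sat at the ends of coverage segments. At 39.32 and 35.60 Mb of chromosome 17, the proximal edges of amplified stretches of OE33, insulation was 0.72 and 0.17 in HCC1954 and -1.22 and -1.31 in OE33. At 40.36 and 45.76 Mb of chromosome 12, in the first and last block of the segment higher in HCC1954, it was -1.504 and -1.42 in HCC1954 and 0.15 and -0.13 in OE33. At 1.08 Mb of chromosome 9, the start of another such segment, it was -1.42 and 0.03. At 116.84 Mb of chromosome 7, in the segment around MET, it was -0.36 and -1.67. The largest difference of all, at 72.36 Mb of chromosome 7, had -2.02 in HCC1954 and -4.14 in OE33.

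Contacts within chromosomes reached further in OE33. Of the read pairs within chromosomes, 13.4% spanned at least 20 Mb in OE33 and 9.12% in HCC1954, against 10.3% and 10.4% in the SW480 replicates. Below 0.2 Mb, without pairs within 1 bin, the shares were 32.0% and 33.5%. The mean contact frequency of HCC1954 over that of OE33 fell from 1.18 at 1 Mb to 0.877 at 20 Mb and 0.563 at 100 Mb. The ratio was also taken without the correction, per read pair within chromosomes of each line. It was then 1.15 at 1 Mb, 0.990 at 5 Mb, 0.857 at 20 Mb and 0.527 at 100 Mb.

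**Figure D5:**
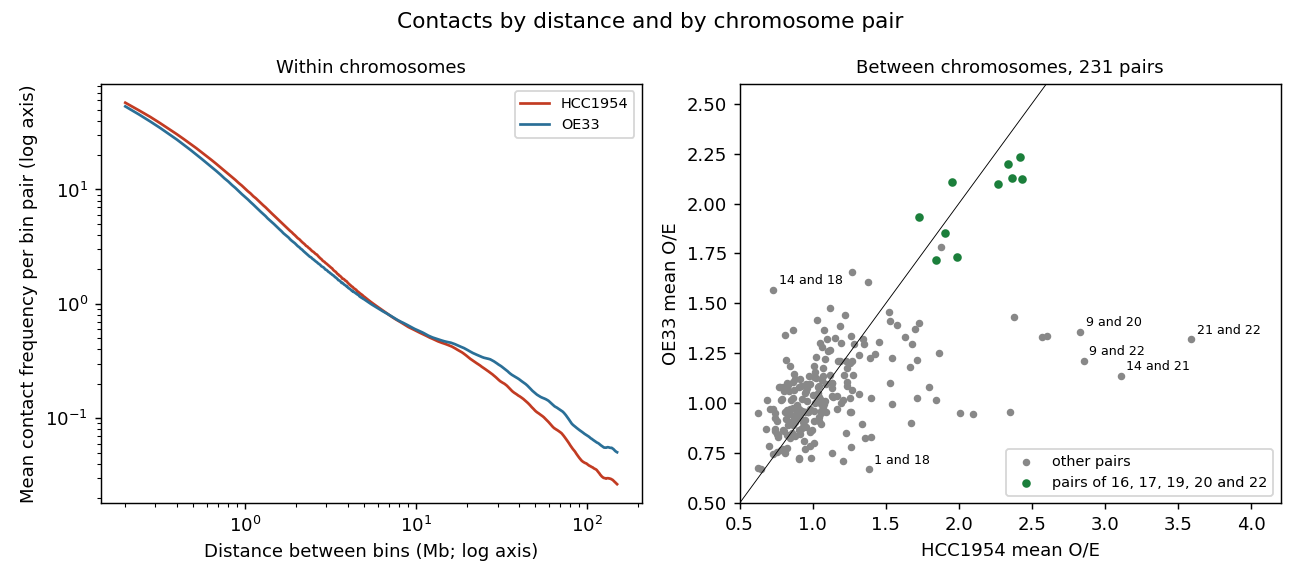
Left, mean corrected contact frequency per pair of 40-kb bins within chromosomes against their distance in Mb (both axes log); right, mean O/E of each of 231 chromosome pairs in HCC1954 (horizontal) and OE33 (vertical), with the pairs of chromosomes 16, 17, 19, 20 and 22 in green and a line of equal values. The lines cross between 5 and 10 Mb on the left, and on the right the pair of chromosomes 21 and 22 has 3.59 in HCC1954 and 1.32 in OE33.

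Of 4443958 pairs of 200-kb blocks at least 2 Mb apart, 31156 (0.701%) were specific to HCC1954 and 21567 (0.485%) to OE33. To be specific to a line, a pair needed an O/E of 4 or more there, and a ratio of 4 or more to the other line after 0.5 was added to each O/E. Most of them rested on few read pairs. With at least 10 read pairs, 3095 (0.0696%) remained in HCC1954 and 6745 (0.152%) in OE33, and the order of the lines turned. By number, chromosomes 3 (4573), 2 (4181), 4 (3817), 1 (3593) and 5 (2589) led in HCC1954, and chromosomes 4 (5673), 2 (3227), 1 (2480), 3 (2108) and 6 (1489) in OE33. On chromosomes 3, 2 and 1 of HCC1954 the pair of the highest ratio had 4, 3 and 2 read pairs, and on chromosomes 1 and 3 of OE33 it had 5 and 7.

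Large focal contacts were found in HCC1954. On chromosome 5, the blocks at 63.0 and 175.2 Mb had an O/E of 208 with 142 read pairs, against 0 read pairs in OE33, which is at least 62.9-fold higher against a floor of 3 read pairs. On chromosome 4, those at 20.4 and 89.6 Mb had 86.7 with 191 read pairs against 0, at least 49.7-fold higher. On chromosome 8, those at 72.2 and 106.4 Mb had 158 with 1448 read pairs against 2, and on chromosome 11, those at 65.4 and 98.8 Mb had 94.5 with 619 read pairs against 2. On chromosome 21, 538 of the 542 specific pairs had at least 10 read pairs, with the highest ratio at 17.8 and 38 Mb (O/E 36.6, 540 read pairs against 0, at least 53.3-fold higher). On chromosome 17, the blocks at 25.4 and 60.2 Mb had 46.9 with 143 read pairs against 0, at least 64.9-fold higher.

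Specific contacts within chromosomes of OE33 had lower peaks. Among the highest-ratio pairs of each chromosome with at least 10 read pairs, the O/E reached 20.01 in OE33 and 208 in HCC1954. More of the specific pairs of OE33 held at least 10 read pairs, 31.3% against 9.93%. With at least 10 read pairs, chromosomes 4 (1328), 2 (967) and 6 (817) led. The highest O/E ratios among them were those of the blocks at 66.4 and 133.4 Mb of chromosome 4 (O/E 14.8, 16 read pairs against 0), at 104.8 and 185 Mb of chromosome 2 (11.1, 15 against 0) and at 66.8 and 124.6 Mb of chromosome 6 (11.7, 25 against 0). Against a floor of 3 read pairs in HCC1954 these were at least 5.91-fold, 3.28-fold and 4.87-fold higher, so the chromosome 2 pair was under 4-fold. A focal contact was seen on chromosome 13, where the blocks at 27.8 and 36.6 Mb had 20.01 with 333 read pairs against 19.

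The share of read pairs between chromosomes was higher in OE33 on every chromosome, from 1.29 times on chromosome 22 (45.3% against 35.2%) to 2.27 times on chromosome 3 (33.7% against 14.8%). It was higher in A than in B in both lines, at 20.53% and 16.8% in HCC1954 and 39.4% and 31.1% in OE33. This share also counts chance ligations, whose part in the difference was not tested.

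Of 3095286 pairs of 1-Mb blocks on different chromosomes, 14667 (0.474%) were specific to HCC1954 and 2468 (0.0797%) to OE33. On read pairs without the correction the shares were 0.918% and 0.482%. The median block pair held 4 read pairs in HCC1954 and 11 in OE33, and 14534 and all 2468 of the specific pairs held at least 10. They lay on 163 of 231 chromosome pairs in HCC1954 and on 29 in OE33. The 5 leading chromosome pairs held 29.9% of them in HCC1954 and 74.4% in OE33. The O/E is over the mean of the same map, which held 21002828 read pairs between chromosomes in HCC1954 and 48893490 in OE33. The 99th percentile of O/E over block pairs was 4.09 and 2.71. A higher background lowers the O/E of a given contact, and its part in these counts was not tested.

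In HCC1954 the leading pairs were chromosomes 2 and 8 (1111 block pairs), 8 and 14 (1071), 1 and 18 (842), 6 and 11 (683) and 11 and 20 (673). Among these 5 chromosome pairs, the highest ratio was that of 105 Mb of chromosome 8 with 54 Mb of chromosome 14 (O/E 145, 1777 read pairs against 1 in OE33). Others were 73 Mb of chromosome 11 with 41 Mb of chromosome 20 (183, 988 against 17) and 63 Mb of chromosome 6 with 71 Mb of chromosome 11 (147, 526 against 6). Further ones were 98 Mb of chromosome 2 with 83 Mb of chromosome 8 (98.2, 494 against 2) and 95 Mb of chromosome 1 with 32 Mb of chromosome 18 (96.1, 848 against 7). Whether such contacts mark rearrangements was not tested in either line. Over all chromosome pairs the highest ratio was that of 45 Mb of chromosome 12, in the last block of its segment of high coverage, with 59 Mb of chromosome 20 (O/E 619, 13643 read pairs against 20).

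In OE33 the leading pairs were chromosomes 3 and 11 (582), 4 and 18 (366), 1 and 7 (342), 14 and 18 (275) and 8 and 16 (271). The strongest contact was that of 106 Mb of chromosome 8 with 61 Mb of chromosome 16 (O/E 119, 1788 read pairs against 5 in HCC1954). It was followed by 115 Mb of chromosome 3 with 108 Mb of chromosome 11 (92.1, 1604 against 1). Next was 59 Mb of chromosome 1 with 114 Mb of chromosome 7 (84.0, 4006 against 4), the latter in the segment of high coverage around MET. The pairs 4 and 18 (33.6, 80 read pairs against 0) and 14 and 18 (15.9, 89 against 1) were weaker. No chromosome pair was among the 5 leading ones of both lines. With 5 of 231 chromosome pairs taken per line, and a rule by which no block pair is specific to both, this lack of overlap says little.

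Averaged over whole chromosomes, 231 pairs had a Pearson r of 0.584 between the lines for the mean O/E and of 0.740 for the median, which share each chromosome among 21 pairs. The 10 pairs among the small gene-rich chromosomes 16, 17, 19, 20 and 22 had a mean O/E of 2.12 in HCC1954 (1.73 to 2.43) and of 2.01 in OE33 (1.72 to 2.23), so their ranges overlapped. By the median O/E of each pair the order turned, with means of 1.84 and 1.89. The largest departures of HCC1954 were chromosomes 21 and 22 (3.59 against 1.32) and 14 and 21 (3.11 against 1.14), and that of OE33 was chromosomes 14 and 18 (1.57 against 0.730).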

How the data were processed

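The authors aligned MboI in situ Hi-C libraries of 4 cancer cell lines to hg19 with BWA and removed duplicates with Picard (submitters' notes and methods, without versions). Cells were assayed in duplicate. No source used here states whether a map pools libraries. Each deposited value is a signal: the iteratively corrected contact frequency of 2 bins of 40 kb. Lengths of 22 of 22 chromosomes equalled those of GRCh37.

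Read pairs were recovered by fitting 1 factor per bin, and 100% of products up to 20.5 lay within 0.02 of a whole number. Depth was 110621058 read pairs for HCC1954 and 136017485 for OE33, without molecular identifiers, so intervals cover counting error only. The correction raises the O/E between chromosomes of an amplified stretch relative to that within its chromosome. Coverage was compared in 1-Mb blocks with at least 13 of 25 usable bins, compartments in 200-kb blocks with 3 of 5 usable bins, O/E clipped at 4, and the component among 3 that correlated most with gene density, and insulation with a 1-Mb square, a 200-kb delta and a strength of at least 0.1. Expected values were smoothed beyond 5 Mb over 10% of the distance. Contacts called specific had the same rule of 4-fold in 200-kb blocks within and 1-Mb blocks between chromosomes.

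Maps were grouped by the labelled cell line, with no test between lines. SW480 replicates 1 and 2 served as the yardstick of spread, SNU-C1 as a coverage reference, and the SW480 map without a replicate number was not used. Named genes were all genes of the ERBB2 list, in each other list those with a called coverage ratio or switch or otherwise at most 3 by size, the 5 leading chromosomes and chromosome pairs, and the 5 strongest unshared boundaries per line. The maps, lists and rules were chosen with earlier results of these data known. Some genes that the rule names are not reported here. Gene positions came from GENCODE on GRCh37. Scripts were tested on simulated data. Matplotlib 3.10.9, pandas 2.3.3, PyArrow 21.0.0, SciPy 1.17.1 and NumPy 2.4.6 ran under Python 3.11.15.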

Additional observations from a re-analysis of the deposited data

How the results depend on the processing

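Of 54 values recomputed under alternatives for 17 results, 39 stayed within 1.5 times the reported value or within the tolerance set for it, and 15 moved. With bins of at least 0.5 of the median coverage, 148 blocks were at least 2-fold higher in OE33, against 241, and 106 against 147 in HCC1954. Compartment scores from contacts between chromosomes gave 2.99% switched blocks, against 6.27%. The percent of block pairs within chromosomes specific to HCC1954 and OE33, reported as 0.701 and 0.485, was 0.111 and 0.0972 with 400-kb blocks and 0.0549 and 0.0133 with a ratio and O/E of at least 8. It was 0.0696 and 0.152 with at least 10 read pairs, an alternative chosen after seeing the data that turned the order of the lines. Between chromosomes the percent specific, reported as 0.474 and 0.0797, was 0.918 and 0.482 on read pairs without the correction and 0.137 and 0.0178 with a ratio and O/E of at least 8. The stretch with ERBB2 in OE33, 1560 kb long at 4 times the median, was 720 kb with pairs within chromosomes only and 480 kb at 8 times the median, while that of HCC1954 was 520 kb in each case. The coverage ratio at ERBB2 was 3.10, and 5.56 after the GC adjustment, which was chosen after seeing the data. Without the correction, r of insulation between the lines was 0.472 in place of 0.861, and 73.0% and 74.9% of boundaries were shared. Against SNU-C1, 74 of 2555 blocks were at least 2-fold above it and 148 at least 2-fold below it in HCC1954, and 196 and 161 in OE33. The causes of these changes were not tested.

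No paired analysis was possible because each line had 1 map, and no fit without 1 replicate exists for the same reason. Contacts over long distances and between chromosomes rested on few read pairs, with a median of 4 per pair of 1-Mb blocks in HCC1954, which also had the lower depth. Only SW480 had replicates, so the replicate spread of these lines was not measured. Differences between the lines in cell type, karyotype and library cannot be told apart with 1 map of each.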
